A study of Mus musculus with 2 samples.

Results

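The genes described here encode the CD3 and zeta chains of the T cell receptor complex (Cd3d, Cd3e, Cd3g and Cd247), the co-receptors CD4 and CD8 (Cd4, Cd8a and Cd8b1), the adaptor LAT (Lat) and 2 proteins of T cell subsets, the regulatory T cell factor Foxp3 and the inducible costimulator Icos. They were chosen by symbol and matched to Ensembl gene identifiers through GENCODE M21, and all 10 were found among the 37315 identifiers of the deposited count tables. The data were 2 RNA sequencing libraries from lung of C57BL/6 mice, 1 from a control and 1 from exposure to PM2.5, airborne particulate matter of up to about 2.5 micrometres, called here the control lung and the PM2.5 lung. The sample titles end in 12W, which the labels do not explain. Age, sex, dose, route of exposure and the number of animals behind a library were not in the labels. With 1 library per group, no difference below has a replicate check, and the values compare these libraries and not the conditions.

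The alpha and beta chains of the T cell receptor recognise peptide held by MHC molecules. Like the gamma and delta chains of the other receptor type, they have almost no part inside the cell. The signal is passed on by the CD3 gamma, delta and epsilon chains and the zeta chain, whose tyrosine motifs are phosphorylated by the kinase Lck and then bound by the kinase Zap70, which in turn phosphorylates the adaptor LAT. CD4 binds MHC class II and marks helper and regulatory T cells, while CD8, a dimer of alpha and beta chains, binds MHC class I and marks cytotoxic T cells. The lung holds T cells in its tissue, in its vessels and around its airways. In a bulk lung library, fewer T cells and less RNA per T cell cannot be told apart.

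The 4 receptor chain genes lie in 2 places. Cd3g, Cd3d and Cd3e form a cluster of 40.06 kb on chromosome 9 of GRCm38, the assembly also called mm10, in which Cd3g (44969572 to 44980431, minus strand) and Cd3d (44981786 to 44987339, plus strand) start 1355 bases apart and are read in opposite directions, followed by Cd3e (44998740 to 45009627, minus strand). Cd247 lies on chromosome 1 (165788681 to 165877277, plus strand). Cd8b1 (71322788 to 71337494) and Cd8a (71373427 to 71379173) are neighbours on the plus strand of chromosome 6, 35.93 kb apart, and Cd4 lies on the same chromosome (124864692 to 124888221, minus strand). RefSeq promoter windows on build GRCm38.p6 were matched for 7 of the 10 genes, in 8 windows since Foxp3 has 2 starts. Cd4, Cd8b1 and Icos had no entry. The 250 bases before the start of the 3 clustered CD3 genes and of Cd8a are shown because Cd3g had the smallest difference between the libraries and Cd8a the largest. Capitals mark matches on either strand to core letters of factor families known in T cells: AGGAAG for ETS factors, AGATAA for GATA factors, TGTGGT for RUNX factors, CTTTGA for TCF and LEF factors, CAGCTG and also CACCTG for E proteins, and TATAAA for the TATA box. None of these matches overlapped another.
Cd3d (chr9:44981536-44981785, plus strand): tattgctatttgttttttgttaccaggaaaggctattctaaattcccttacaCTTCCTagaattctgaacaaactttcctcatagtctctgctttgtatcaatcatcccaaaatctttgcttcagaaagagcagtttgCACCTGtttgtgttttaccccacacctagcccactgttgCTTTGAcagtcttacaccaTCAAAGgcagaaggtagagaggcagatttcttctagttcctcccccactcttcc
Cd3g (chr9:44980432-44980681, minus strand): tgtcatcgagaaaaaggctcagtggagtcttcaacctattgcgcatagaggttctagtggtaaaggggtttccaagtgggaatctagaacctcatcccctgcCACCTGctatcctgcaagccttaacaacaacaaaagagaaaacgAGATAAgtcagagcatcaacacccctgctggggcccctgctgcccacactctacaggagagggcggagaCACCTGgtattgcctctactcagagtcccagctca
Cd3e (chr9:45009612-45009861, minus strand): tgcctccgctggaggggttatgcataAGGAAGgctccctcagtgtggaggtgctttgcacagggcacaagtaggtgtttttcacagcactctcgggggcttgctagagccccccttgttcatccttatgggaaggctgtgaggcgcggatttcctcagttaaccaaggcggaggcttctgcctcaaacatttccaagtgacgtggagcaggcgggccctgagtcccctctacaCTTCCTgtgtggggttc
Cd8a (chr6:71373177-71373426, plus strand): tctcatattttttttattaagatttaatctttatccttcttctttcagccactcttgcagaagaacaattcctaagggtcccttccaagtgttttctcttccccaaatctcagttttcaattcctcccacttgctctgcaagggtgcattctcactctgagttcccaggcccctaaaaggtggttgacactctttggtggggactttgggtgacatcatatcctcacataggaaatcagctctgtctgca
The ETS letters stood in 5 of the 8 member windows (those of Cd3d, Cd3e, Cd247, Lat and 1 of Foxp3) and in 29.5% of all 32817 windows of this length. In Cd3e they stood 17 and 224 bases before the RefSeq start. That start lies inside the gene coordinates given above, so the nearer match falls mostly within them. The second E box form stood in 3 windows (Cd3d, Cd3g and Cd247) against 17.2% of all, the GATA letters in 2 (Cd3g and 1 of Foxp3) against 9.99%, and the TCF and LEF letters in 1 (Cd3d) against 13.8%. The first E box form was in 1 window of Foxp3 (13% of all), the TATA letters in the other Foxp3 window (12.4%), and the RUNX letters in none (14% of all). The Cd8a window held none of the 7 motifs. A match describes the letters of a window and is neither a binding site nor a cause of a level.

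Counts were 62788045 in the control lung and 57435027 in the PM2.5 lung. Levels are given in CPM, counts relative to the library size after TMM scaling, and differences as the CPM of the PM2.5 lung divided by that of the control lung, with an exact 95% interval (Clopper-Pearson) that covers counting error only. A gene was called where its ratio reached 1.5-fold in either direction and its interval did not hold 1. Of the 14518 genes whose mean level reached 1 CPM, 14.9% were called higher and 19.1% lower, so 43.8% of the called genes were higher. Scaling by library totals, which raises every log2 ratio by 0.23, moved that split to 70.6%, and the upper quartile, which adds 0.14, to 59.7%. The median log2 ratio of all genes was -0.09, with a middle 50% from -0.48 to 0.33, and it ran from 0.24 in the fifth of genes with the shortest exonic sequence to -0.35 in the fifth with the longest. Lung identity genes were abundant in both libraries: Sftpc (type 2 cells) had 837001 and 1159636 counts and Scgb1a1 (club cells) 1123766 and 1860197.

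All 10 T cell genes passed the filter of 1 CPM, although Foxp3 did so through the control lung alone, with 1.36 CPM there and 0.852 CPM in the PM2.5 lung. The core chains of the receptor stood at close to the same level in both libraries, the CD8 chains were higher in the PM2.5 lung, and Cd4 and Foxp3 were lower there. Of the 10 genes, 2 were called higher (Cd8a and Cd8b1) and 1 lower (Foxp3), against 14.9% and 19.1% of all genes. For so few genes these shares are near the background. At 2-fold none of the 10 was called, against 7.25% of all genes higher and 6.04% lower. The other 7 did not reach the size rule, and the interval included 1 for 3 of them, Cd3e, Cd3g and Icos. Over all 10 genes the log2 ratio ran from -0.68 to 0.79 with a median of 0.17.

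**Figure D1:**
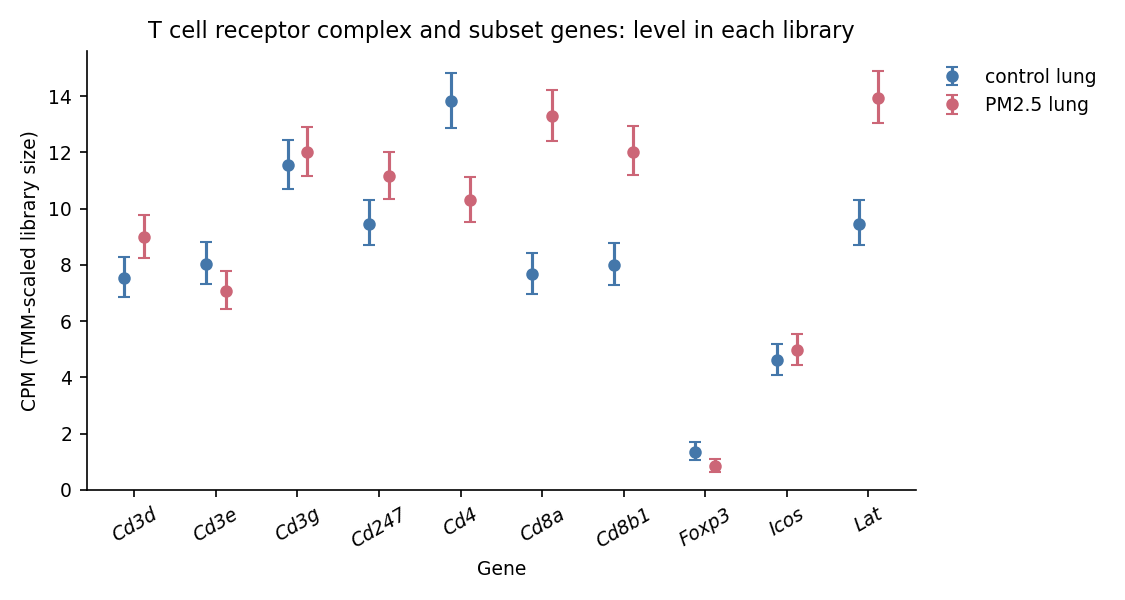
Level of each of the 10 genes in CPM (vertical axis, from 0) in the control lung (blue) and the PM2.5 lung (red), with exact 95% Poisson intervals for counting error. The intervals of the 2 libraries lie apart for Cd4, Cd8a, Cd8b1 and Lat and, narrowly, for Cd247, and Foxp3 is the lowest of the genes at 1.36 and 0.852 CPM.

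The CD3 and zeta chains, which pass on the signal of the receptor, had 2121 counts together in the control lung and 2441 in the PM2.5 lung. This is 36.6 and 39.2 CPM, a ratio of 1.07 (1.01 to 1.14). None of the 4 was called. Cd3d, the delta chain, had 437 and 559 counts, or 7.54 and 8.99 CPM, a ratio of 1.19 (1.05 to 1.35). Cd3e, the epsilon chain, which is part of both CD3 dimers, had 466 and 441 counts, or 8.04 and 7.09 CPM, a ratio of 0.882 (0.773 to 1.01). It was the only chain lower in the PM2.5 lung, and scaled by library totals its ratio was 1.03. Cd3g, the gamma chain, had 669 and 747 counts, or 11.5 and 12.01 CPM, a ratio of 1.04 (0.936 to 1.16). Cd247, the zeta chain, which natural killer (NK) cells also use, had 549 and 694 counts, or 9.47 and 11.2 CPM, a ratio of 1.18 (1.05 to 1.32). Cd247 shares 3007 bases of its 5329 bases of exonic sequence with Pou2f1 on the opposite strand. The strand setting of the counting is not given in the sources used here, so reads in that stretch may have been assigned or dropped in ways that cannot be told.

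Within a library, the ratio of counts of 2 genes is free of the scaling between libraries. It gave 12 comparisons among the 10 genes, of which 6 had an interval of the change that excluded 1. For each Cd3e count there were 0.938 counts of Cd3d in the control lung and 1.27 in the PM2.5 lung, a change of 1.35-fold (1.12 to 1.63). For Cd247 the ratio to Cd3e went from 1.18 to 1.57, a change of 1.34-fold (1.12 to 1.59). For Cd3g it was 1.44 and 1.69, and the interval of the change included 1 (0.995 to 1.40). The chains of 1 complex thus did not keep a fixed ratio of counts between the libraries. Ratios varied with length over all genes, and the medians of the 500 genes nearest in exonic length were 0.19 for Cd3d (1815 bases), -0.14 for Cd3e (4080 bases), -0.11 for Cd3g (3269 bases) and -0.17 for Cd247, as log2 ratios. The chains' own log2 ratios were 0.25, -0.18, 0.06 and 0.24, so Cd247 was the chain farthest from the genes of its length.

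The co-receptors went in opposite directions. Cd8a, the alpha chain of CD8, had 445 counts in the control lung and 826 in the PM2.5 lung, or 7.68 and 13.3 CPM, and was 1.73-fold higher (1.54 to 1.95). A total of 90.01% of all genes had a lower ratio. Cd8b1, the beta chain found with Cd8a on conventional cytotoxic T cells, had 464 and 748 counts, or 8.003 and 12.03 CPM, and was 1.503-fold higher (1.34 to 1.69). Cd4 had 801 and 641 counts, or 13.8 and 10.3 CPM, a ratio of 0.746 (0.671 to 0.829), which is 1.34-fold lower and short of the size rule. Cd8b1 lies just inside the rule and Lat, with 1.47-fold, just outside it. With DESeq2 size factors Cd8b1 was 1.49-fold higher and with TMM taken without the 100 most abundant genes 1.497-fold, both just below the rule. With the trend on length removed it was 1.29-fold higher (1.14 to 1.45), since genes as short as Cd8b1 (1483 bases) had a median log2 ratio of 0.24. Cd8a, of 3637 bases, was 1.84-fold higher with that trend removed.

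Of the 12 comparisons, the count ratio of Cd4 to Cd8a changed most. There were 1.80 counts of Cd4 for each count of Cd8a in the control lung and 0.776 in the PM2.5 lung. The ratio was 2.32-fold lower in the PM2.5 lung (1.98 to 2.72), a value that no scaling changes. Against Cd8b1, a comparison added after the values were seen, it went from 1.73 to 0.857, 2.01-fold lower (1.72 to 2.36). In raw counts the 2 CD8 chains kept a more even ratio, with 1.04 counts of Cd8b1 for each of Cd8a in the control lung and 0.906 in the PM2.5 lung. The interval of the change, 0.735 to 1.03, included 1. Pair ratios are free of scaling but not of the trend on length. With that trend removed, the ratios of the single genes lay farther apart for the CD8 chains, 1.29 for Cd8b1 and 1.84 for Cd8a, and Cd4 had 0.805. Set against Cd3e, Cd8a went from 0.955 to 1.87, a 1.96-fold change (1.64 to 2.34), and Cd4 from 1.72 to 1.45, with an interval of 0.713 to 1.002 that just included 1.

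**Figure D2:**
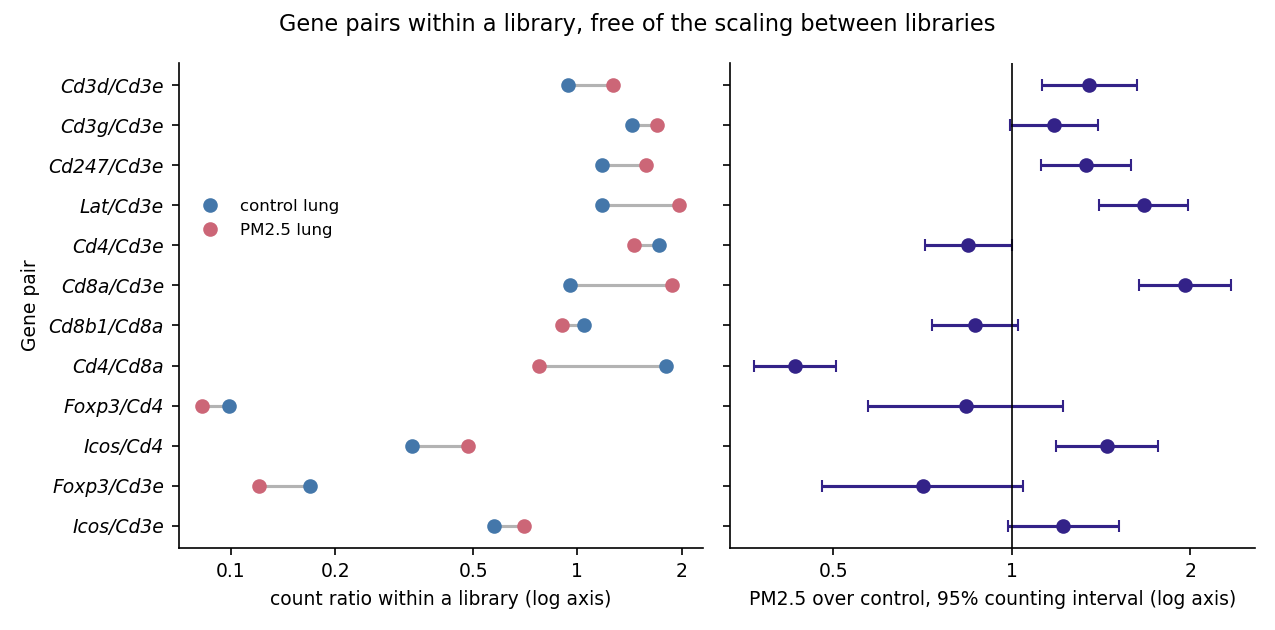
Left, count ratio of each of 12 gene pairs within the control lung (blue) and the PM2.5 lung (red) on a log axis. Right, the change between libraries with its exact 95% counting interval on a log axis. Cd4 over Cd8a falls from 1.80 to 0.776, the point farthest from 1, while the intervals of Cd8b1 over Cd8a and of both Foxp3 pairs include 1.

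Some dendritic cells also carry CD4 or CD8 alpha. Of 7 dendritic cell markers, Cd209a was 2.05-fold higher, Clec9a was 1.81-fold lower (1.72 to 1.90), and 5 were not called. The shares of all genes called were 14.9% higher and 19.1% lower. Clec9a marks the dendritic cells that present antigen to CD8 T cells. Xcr1, among the 5 not called, had 205 and 248 counts, a ratio of 1.13 (0.933 to 1.36). The summed level of the list was 196 CPM in the control lung and 149 CPM in the PM2.5 lung. Most of it came from Itgax, Clec9a and Zbtb46, at 67.8, 72.1 and 34.4 CPM in the control lung. In the PM2.5 lung these had 48.5, 39.9 and 30.7 CPM. The part of dendritic cells in the Cd4 and Cd8a values was not tested. Thymus can be carried over with lung. Rag2 and Ptcra, which define immature thymocytes, had 0 counts in both libraries, as did Foxn1 of the thymic epithelium, a count whose exact Poisson interval reaches up to 0.0636 and 0.0593 CPM. Other genes of these lists had low counts and ran both ways. The thymic epithelial genes Psmb11 and Aire had 3 and 15 counts and 0 and 9 counts, and Prss16 had 13 and 11. Of the thymocyte markers, Rag1 had 16 and 4 counts and Dntt 11 and 103. The summed level of the 4 thymocyte genes was 0.466 and 1.72 CPM, and that of the 5 thymic epithelial genes 1.29 and 2.62 CPM, of which Ccl25 alone passed the filter and was 2.02-fold higher. The part of thymus in the values of the T cell genes was not tested.

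Foxp3, the transcription factor that defines regulatory T cells (chromosome X, 7573644 to 7595245, plus strand), was the rarest of the 10 genes. It had 79 counts in the control lung and 53 in the PM2.5 lung, 1.36 and 0.852 CPM, and was 1.60-fold lower (1.12 to 2.31). The call was lost with library totals, where the ratio was 0.733 (0.508 to 1.05), with the upper quartile (0.688) and with the length trend removed (0.693). Relative to Cd4 there were 0.0986 counts of Foxp3 in the control lung and 0.0827 in the PM2.5 lung, and the interval of the change, 0.571 to 1.22, included 1. So it did relative to Cd3e, at 0.479 to 1.04. At this depth no difference of Foxp3 from Cd4 was detectable. Foxp3 shares exonic sequence with other genes, 590 bases with Ccdc22 and 266 with Ppp1r3f on the opposite strand and 853 with Flicr on its own strand. Icos, the costimulator of activated, follicular helper and regulatory T cells, which group 2 innate lymphoid cells also carry (chromosome 1, 60977927 to 61000320, plus strand), had 267 and 309 counts, or 4.61 and 4.97 CPM, a ratio of 1.08 (0.913 to 1.28). Relative to Cd4 it went from 0.333 to 0.482, a 1.45-fold change (1.19 to 1.76), and relative to Cd3e from 0.573 to 0.701, with an interval of 0.987 to 1.52 that included 1.

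Lat, the membrane adaptor on which the signal of the receptor converges (chromosome 7, 126363824 to 126369570, minus strand), had 549 and 867 counts, or 9.47 and 13.9 CPM. Its ratio of 1.47 (1.32 to 1.64) was the highest among the 7 of the 10 genes that were not called. With library totals it was called, at 1.73-fold, and with the upper quartile at 1.62-fold. Relative to Cd3e, Lat went from 1.18 to 1.97, a 1.67-fold change (1.40 to 1.98) that no scaling touches. NK cells, mast cells and platelets also make LAT. Of 12 NK markers, 10 were called higher and none lower, against 14.9% and 19.1% of all genes. Their summed level was 135 CPM in the control lung and 287 CPM in the PM2.5 lung. Tyrobp alone gave 73.6 CPM of that sum in the control lung and 149 CPM in the PM2.5 lung. Of 8 mast cell markers, 5 passed the filter, 3 of them higher, such as Cma1 at 6.99-fold on 30 and 225 counts, and Kit, which other lung cells express, was 1.996-fold lower. Cma1 and Mcpt4, which make up 2 of these 3, passed the filter only through the PM2.5 lung, with 0.517 and 0.397 CPM in the control lung. Of 7 platelet markers, 6 passed, with Pf4 1.90-fold higher and Itga2b and Treml1 2.45-fold lower. The summed levels of the mast and platelet lists were lower in the PM2.5 lung, 320 and 232 CPM for mast cells and 69.5 and 53.3 CPM for platelets. The median log2 ratio of the mast list had the other sign, at 1.01, and Kit alone gave 243 CPM of its sum in the control lung and 122 CPM in the PM2.5 lung. Below the filter, Tpsb2, a mast cell tryptase, had 1 count in the control lung and 103 in the PM2.5 lung, and Fcer1a, a chain of the IgE receptor, had 1 and 43. The part of these cells in the Lat value was not tested.

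**Figure D3:**
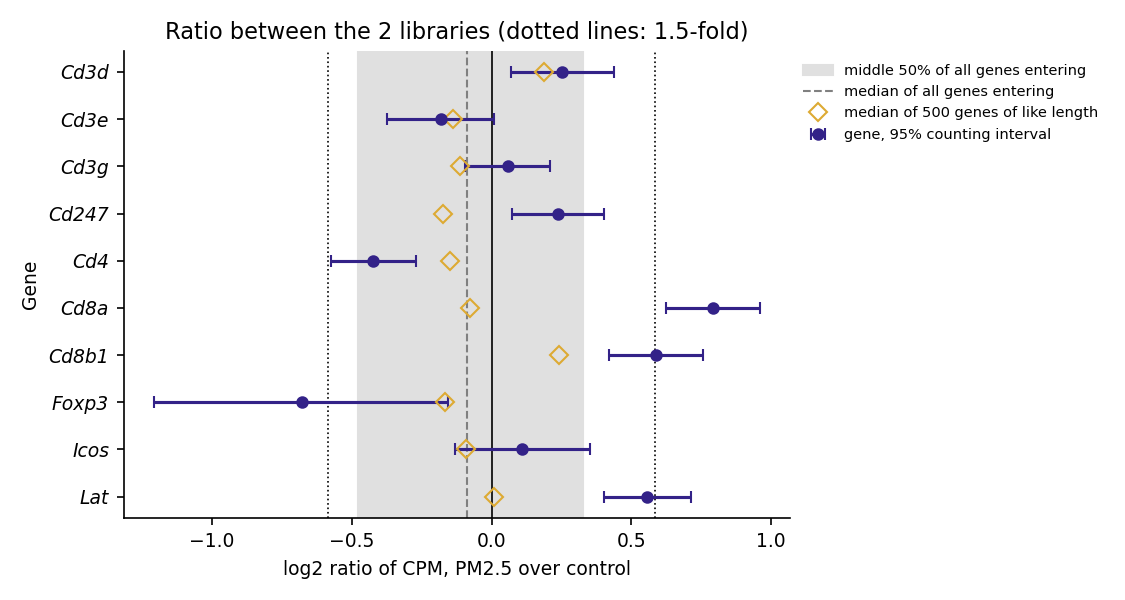
log2 ratio of CPM (PM2.5 over control) of each gene with its 95% counting interval, the middle 50% of all 14518 genes (grey, -0.48 to 0.33), their median (dashed) and the median of the 500 genes of like exonic length (diamonds). Cd8a at 0.79 and Cd8b1 at 0.59 lie at or beyond the dotted 1.5-fold line on the right and Foxp3 at -0.68 beyond that on the left.

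Per length, the order of the genes differed between the libraries. In CPM per kilobase of exonic sequence, Cd8b1 had the highest level in both, 5.40 in the control lung and 8.11 in the PM2.5 lung. It was followed in the control lung by Cd3d (4.15), Cd3g (3.53), Cd4 (3.43) and Lat (3.42), each with a counting interval that overlapped that of the gene before it, except that Cd3d lay apart from Cd8b1. Then came Cd8a (2.11), Cd3e (1.97) and Cd247 (1.78), again overlapping from one to the next, and below them Icos (1.34) and Foxp3 (0.298), each apart from the gene above. In the PM2.5 lung Lat (5.04) and Cd3d (4.95) overlapped, as did Cd3g (3.67) and Cd8a (3.65). Cd4 (2.56) stood below that pair, followed by Cd247 (2.09) and Cd3e (1.74), each apart from the one above, then Icos (1.45), which overlapped Cd3e, and Foxp3 (0.186). Cd4 thus stood above Cd8a per length in the control lung and below it in the PM2.5 lung. These levels divide by all annotated exonic bases, which understates genes with long exons of rare transcripts.

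The other receptor genes are those of the constant regions. Of 7 constant region genes listed, 6 were in the files and 4 passed the filter. Of these, 2 were called higher and none lower, against 14.9% and 19.1% of all genes. Trac, the constant region of the alpha chain, had 611 and 508 counts, a ratio of 0.775 (0.688 to 0.873). For the beta chain, Trbc1 was 1.74-fold higher (1.55 to 1.96) and Trbc2 had a ratio of 1.30 (1.20 to 1.42). These are near-identical copies that can share reads, so their sum is the safer value, 1378 and 2128 counts, for a ratio of 1.44 (1.34 to 1.54). Tcrg-C1, a constant region of the gamma chain, had 60 and 140 counts and was 2.18-fold higher (1.60 to 2.99). It too has close copies. The alpha and beta constant genes, which pair in 1 receptor, thus lay on opposite sides of 1. These genes are short, and the 500 genes nearest in exonic length had median log2 ratios of 0.38 for Trac, 0.41 for Trbc1 and 0.40 for Trbc2. The log2 ratios of the 3 constant genes themselves were -0.37, 0.80 and 0.38 in that order. Trbc2 thus lay close to the median of genes of its length.

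Downstream of the receptor, most genes stayed within 1.5-fold. In a list of 28 signalling genes, 27 passed the filter, 2 were called higher, 1 lower and 24 neither, against 14.9% higher and 19.1% lower over all genes. The median log2 ratio of the list was -0.04, which turned positive with library totals (0.19) and the upper quartile (0.10). The called genes were Cd2, an adhesion receptor of T and NK cells, 1.55-fold higher (1.44 to 1.66), Txk, a kinase of the Tec family, 1.56-fold higher (1.31 to 1.86), and Pag1, an adaptor that holds the inhibitory kinase Csk at the membrane, 1.70-fold lower (1.64 to 1.77). Of the kinases that act first on the chains, none was called. Lck had 1529 and 1588 counts with a ratio of 0.968 (0.902 to 1.04). Fyn, a related kinase that many cell types make, had 4635 and 3473 counts with a ratio of 0.698 (0.668 to 0.730). Zap70 had 485 and 599 counts with a ratio of 1.15 (1.02 to 1.30). Lcp2, the adaptor SLP-76 that works with LAT, had a ratio of 1.09 (1.01 to 1.18). The most abundant members serve many cell types, and their ratios were 1.45 for the leukocyte phosphatase gene Ptprc, 0.783 for Plcg1 and 0.711 for Csk.

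Among 16 costimulation and checkpoint genes, 12 passed the filter, 6 were called higher and none lower, with a median log2 ratio of 0.52. Over all genes, 14.9% were called higher and 19.1% lower. The leading ones were Tnfrsf18, the receptor GITR of regulatory and activated T cells, 3.43-fold higher (2.66 to 4.48) on 76 and 280 counts, and Btla, an inhibitory receptor that B cells carry in abundance, 2.69-fold higher (2.51 to 2.89) on 1104 and 3189 counts. Icosl, the ligand of Icos on B cells and other antigen-presenting cells, was 1.55-fold higher (1.45 to 1.65), beside a ratio of 1.08 for Icos itself. Cd27 and Cd86 had ratios of 1.35 and 1.25. B cell markers were higher in the PM2.5 lung, with 8 of 10 called higher and none lower and a summed level of 301 and 518 CPM, and their part in Btla and Icosl was not tested.

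The lists of naive and homing genes, lineage factors and regulatory T cell genes had negative medians, and so did genes of their lengths. The median over each list of its genes' like-length medians was -0.16, -0.24 and -0.18 in that order, and the median of all genes was -0.09. Of 9 genes of naive T cells and homing, 4 were called lower and 1 higher, with a median log2 ratio of -0.42. Lef1 and Tcf7, factors of T cell development and of naive T cells, were 2.17-fold (1.94 to 2.44) and 2.03-fold (1.93 to 2.14) lower. S1pr1, the receptor by which lymphocytes leave lymph nodes, and its regulator Klf2 were 1.71-fold and 1.56-fold lower. Endothelium expresses S1pr1 and Klf2, and the endothelial gene Cdh5 was 3.05-fold lower. Of 13 lineage factors, 4 were called lower and none higher, with a median of -0.32. The called factors included Ets1 at 2.22-fold (2.18 to 2.27) and Gata3, the factor of type 2 helper T cells, at 1.76-fold (1.57 to 1.99). In the control and PM2.5 lungs Ets1 stood at 479 and 216 CPM and Tcf7 at 77.2 and 38.04 CPM. Cd3e stood at 8.04 and 7.09 CPM. The part of cells other than T cells in the Ets1 and Tcf7 values was not tested. Zbtb7b, which sets the CD4 lineage, had a ratio of 0.802, Ikzf1 0.895 and Runx1 1.06. Of 9 regulatory T cell genes past the filter, 2 were called lower and none higher, with a median of -0.21 that was 0.02 with library totals. These were Ikzf4 at 2.73-fold (2.36 to 3.16) and Izumo1r, the folate receptor of regulatory T cells, at 2.31-fold (1.73 to 3.12) on 151 and 70 counts. Ikzf2 alone of the 9 had a ratio above 1, at 1.34 (1.14 to 1.57) on 275 and 395 counts. The more abundant Entpd1, Nt5e, Lrrc32 and Il2rb, which other lung cells share, had ratios of 0.949, 0.927, 0.864 and 0.960. Of 9 T cell cytokine genes, Il4 alone passed the filter, at 77 and 105 counts with a ratio of 1.27 (0.938 to 1.73). Over the 7 lists, 11 of the 75 genes past the filter were called higher and 11 lower, 14.7% in each direction, which is near the 14.9% of all genes higher and below the 19.1% lower.

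**Figure D4:**
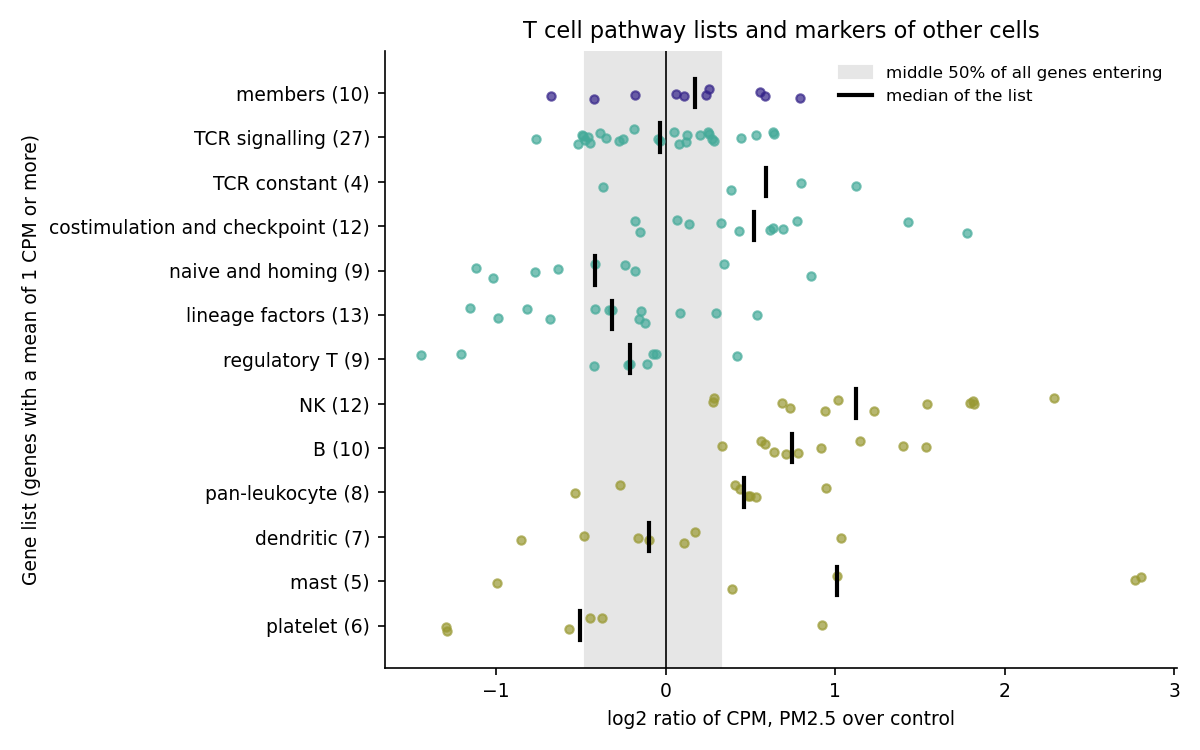
log2 ratio of CPM (PM2.5 over control) of every gene past the filter in the member genes (dark blue), the T cell pathway lists (green) and marker lists of other cells (olive), with the list medians as bars and the middle 50% of all genes in grey. The medians of the NK list at 1.12 and the B list at 0.75 lie to the right of the grey band and that of the signalling list, at -0.04 here and 0.19 with library totals, within it.

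Most NK and B cell markers were called higher in the PM2.5 lung, against 14.9% of all genes, while leukocyte genes as a whole ran both ways. NK markers had a median log2 ratio of 1.12, led by Klra8 at 4.88-fold and Klrd1 at 3.52-fold, and B cell markers had one of 0.75. Pan-leukocyte genes had a median of 0.46, with Cd52 called among 8, a summed level of 1371 and 1556 CPM and ratios of 1.45 for Ptprc, 1.40 for Coro1a, 0.829 for Lcp1 and 0.689 for Laptm5. Within a library, the 4 receptor chains together had 0.288 counts for each count of the B cell genes Cd79a and Cd79b in the control lung and 0.189 in the PM2.5 lung, 1.52-fold lower (1.43 to 1.62). Relative to the NK genes Ncr1 and Klrb1c they went from 3.59 to 2.08, 1.73-fold lower (1.54 to 1.94). Over the summed counts of all 12 NK markers the chains were 1.99-fold lower. Tyrobp gave 4267 of those 7807 counts in the control lung and 9242 of 17878 in the PM2.5 lung. Over the counts of all 10 B cell markers the chains were 1.60-fold lower. Over the 7 dendritic markers, by contrast, they were 1.41-fold higher (1.32 to 1.504). Itgax and Clec9a gave 3933 and 4182 of the 11372 dendritic counts in the control lung. In the PM2.5 lung they gave 3016 and 2480 of 9287. Against single pan-leukocyte genes the direction depended on the gene, with the chains lower relative to 6 of the 8, such as Ptprc (1.35-fold, 1.26 to 1.44), and higher relative to Laptm5 (1.56-fold) and Lcp1 (1.29-fold). Against the 8 genes together the change was 0.945, with an interval of 0.891 to 1.003 that included 1. These comparisons were added after the values were seen. Cxcl13 and Ccl19, chemokines of lymphoid tissue, were 1.83-fold and 2.36-fold higher, on at most 288 counts, and both passed the filter, Ccl19 only through the PM2.5 lung (0.811 CPM in the control lung), unlike Glycam1 and Madcam1 with at most 1 count each. Of 4 genes of group 2 innate lymphoid cells, Il17rb, which passed only through the PM2.5 lung (0.638 CPM in the control lung), was 2.27-fold higher, Rora, which many lung cells express, 1.62-fold lower, and Il1rl1 and Areg were not called, each with a ratio of 1.44.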

How the data were processed

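Per the labels' protocols, polyadenylated RNA of mouse lung was made into stranded libraries (KAPA) and read in paired mode at 125 bp. The authors deposited raw counts per Ensembl gene, 1 library per file. Alignment and counting tools, per the submitters' processing notes, were TopHat2 2.1.1 and HTSeq 0.6.0 on mm10. The annotation release was not given in the sources used here, nor was the strand setting. The PM2.5 file has 1 blank line, which carries no count. GENCODE M21 gave a symbol to 35449 of the 37315 identifiers, and the others took 0.199% and 0.256% of the counts.

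With 1 library per group, no edgeR or DESeq2 test could be fitted. edgeR 4.0.16 gave TMM factors (0.923 and 1.08) and DESeq2 1.42.0 size factors, in R 4.3.3. Ratios of CPM carry Clopper-Pearson intervals, ratios of gene pairs conditional exact intervals, and levels Poisson intervals (Python 3.11.15, scipy 1.17.1, statsmodels 0.14.6). Reads are not independent molecules, so all of these cover counting error only. The alternatives were other scalings, filters and size rules, thinning to equal totals, and removal of the lowess trend with exonic length. The ratio, its interval and the call rule were tested on simulated Poisson counts with known changes and known library sizes. The scaling, pair intervals, thinning, length trend and motif search were not tested in this way.

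The genes, lists and rules were chosen with earlier results of these data known. In each list, the 4 most abundant genes and up to 2 called higher and 2 lower by the interval bound farthest from 1 are named, except for some that are not reported here. Lck, Fyn, Zap70, Lcp2, Xcr1, Ikzf2, Psmb11, Aire, Prss16, Tpsb2, Fcer1a and the thymus genes below the filter were chosen after their values were seen. The 7 motifs were taken from a larger set of strings that had been searched in these windows, so their matches are not independent of that choice. With 2 libraries a pattern is 1 ratio, so no genes were ranked by likeness.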

Additional observations from a re-analysis of the deposited data

How the results depend on the processing

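Cd8a was called higher under every alternative apart from the 2-fold rule, and the lower ratio of Cd4 to Cd8a kept its direction after thinning. The number of genes of the 10 called higher was 2. It was 3 with library totals and the upper quartile, where Lat was called too and 23.8% and 19.5% of all genes were called higher. It was 1 with DESeq2 size factors, with TMM without the 100 most abundant genes and with the length trend removed. It was also 1 with the interval bound beyond 1.5-fold, and 0 at 2-fold. The number called lower was 1, and it was 0 with library totals, the upper quartile, the length trend removed, the 2-fold rule, the interval bound beyond 1.5-fold and a mean of at least 10 CPM, which 6 of the 10 genes reach. The summed ratio of the CD3 and zeta chains was 1.07, became 1.26 when scaled by library totals, and became 1.18 under the upper quartile, since both raise every ratio alike. The median ratio of the 10 genes, 1.13, became 1.32 and 1.24. Over the T cell lists, the 11 genes called higher became 17 with library totals and 3 at 2-fold. They became 5 with the interval bound beyond 1.5-fold and 5 at 10 CPM. Among all genes, the share called higher went from 14.9% to 23.8%, 7.25%, 10.2% and 8.31% under the same settings in that order. The 11 of the T cell lists called lower became 7 with library totals and 5 at 2-fold, while the share of all genes went from 19.1% to 9.90% and 6.04%. Elsewhere counts stayed within 1.5 times, and all 12 gene pair ratios stayed within their intervals after thinning. No paired analysis was possible because each group has 1 library. Precision is limited most for Foxp3, with 79 and 53 counts.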

Other observations

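The tables also count the variable and joining segments of the T cell receptor genes, short genes that are joined by recombination and to which reads map in part. Of 21 Trbv segments of the beta chain, 20 had a count in the control lung and 19 in the PM2.5 lung, with 471 and 522 counts in all and a ratio of 1.03 (0.910 to 1.17). The 98 Trav segments of the alpha chain had 113 and 115 counts in all, a ratio of 0.949 (0.725 to 1.24), with 38 and 42 of them detected and 29 detected in both libraries. The 13 Trbj segments had 43 and 116 counts, a ratio of 2.51 (1.76 to 3.66), and the 50 Traj segments 9 and 44 counts, a ratio of 4.56 (2.20 to 10.6). The 2 Trdj segments of the delta chain had 9 and 15 counts, with an interval that included 1 (0.637 to 4.03). These segments are very short. The 2883 genes past the filter with the least exonic sequence had a median length of 1638 bases and a median log2 ratio of 0.24. The segments passed no filter, and genes of their own length were not compared. The 5 Trdv segments of the delta chain had 33 and 70 counts, a ratio of 1.98 (1.29 to 3.09), and most of those in the PM2.5 lung, 44 counts, lay in Trdv4. The 6 Tcrg-V segments of the gamma chain had 32 and 49 counts, with an interval that included 1 (0.896 to 2.30), and Tcrg-V6 led in the PM2.5 lung with 28. Trgv2, a gamma variable segment under another symbol, had 31 and 30 counts, a ratio of 0.902 (0.527 to 1.54).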
